A study of Mus musculus with 34 samples.

Results

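Tight junction genes were followed across 5 groups of mouse colon tumour organoids: 7 claudin genes (Cldn2, Cldn3, Cldn4, Cldn7, Cldn12, Cldn15 and Cldn23), occludin (Ocln) and the scaffold gene Tjp1. They were picked by a list of gene names, not by a threshold on measured values, and were 9 of the 54354 genes in the deposited table. The study asked how expression changed after loss of Degs1, the desaturase that makes ceramide from dihydroceramide, and after a knockdown of Yap1, a coactivator of the Hippo pathway. Polyadenylated RNA of 34 organoid libraries was sequenced after strand-marking library preparation. The labels gave every library the genotype AKP, the tissue colon and the cell type epithelial. The groups were 9 libraries of Degs1-KO clone1, 9 of Degs1-KO clone2, 3 of the Scrambled control of the CRISPR experiment, 3 labelled shYAP and 10 of its hairpin control, shControl. The knockouts were made with CRISPR ribonucleoproteins. Each knockout clone stands for 1 line, and nothing in the labels tells whether replicates came from separate cultures. The p-values therefore measure spread between libraries, possibly technical, and n counts libraries.

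Tight junctions seal the space between neighbouring epithelial cells near the apical surface. Claudins are tetraspan membrane proteins that polymerise into the junctional strands, where some close the paracellular path and others form channels through it for ions and water. Occludin sits in the same strands, and ZO scaffolds such as the Tjp1 product ZO-1 tie them to the actin cytoskeleton. In the gut the mixture of claudins differs along the crypt axis, with channel-forming claudins typical of leakier epithelium.

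Library totals ranged from 883253 counts, in clone1 replicate 2, to 6597099 counts. Values below are CPM, counts scaled to a common library total with TMM factors, with the SD over libraries, and changes are log2 fold changes with their standard error from edgeR's quasi-likelihood test with Benjamini-Hochberg adjustment over all genes tested, called at 0.05. Degs1 averaged 2.41 ± 1.32 CPM in clone1 and 1.71 ± 0.892 CPM in clone2, against 7.72 ± 2.62 CPM in Scrambled. Yap1 averaged 19.0 ± 1.12 CPM in libraries labelled shYAP and 16.5 ± 4.13 CPM in shControl, a change of 0.20 ± 0.23 (edgeR adjusted p = 0.619), so Yap1 mRNA gave no measured loss behind that label. The 6 epithelial markers summed to between 1644 and 3339 CPM in every library, while fibroblast, immune and endothelial markers summed to at most 1.18, 1.7 and 3.11 CPM.

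The strongest changes among the 9 genes were in the channel-forming claudins Cldn2 and Cldn15, which fell in both Degs1-KO clones against Scrambled. Against shControl, the control of the hairpin experiment, both fell in clone2, Cldn15 on few counts. In clone1 the changes against shControl were -0.63 ± 0.31 for Cldn2 (edgeR adjusted p = 0.148) and -0.46 ± 0.70 for Cldn15 (edgeR adjusted p = 0.707). Their promoters, and a promoter of Cldn7, which fell in clone2, are shown. The promoters of Ocln and Cldn3, which also fell in clone2, are not printed. The sequences are from RefSeq on GRCm38.p6, 250 bases before to 50 after a start site, on the plus strand. Capitals mark matches to the letters GGAATG (TEAD), TTTATG (CDX) or TGANTCA (AP-1) on either strand.
Cldn2 promoter, chrX:139800558-139800857: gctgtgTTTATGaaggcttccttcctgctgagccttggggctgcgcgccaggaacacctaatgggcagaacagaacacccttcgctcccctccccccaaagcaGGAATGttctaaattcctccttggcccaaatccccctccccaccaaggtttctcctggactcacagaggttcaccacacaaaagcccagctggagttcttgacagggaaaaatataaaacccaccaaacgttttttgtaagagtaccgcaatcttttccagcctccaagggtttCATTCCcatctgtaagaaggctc
Cldn15 promoter, chr5:136967619-136967918: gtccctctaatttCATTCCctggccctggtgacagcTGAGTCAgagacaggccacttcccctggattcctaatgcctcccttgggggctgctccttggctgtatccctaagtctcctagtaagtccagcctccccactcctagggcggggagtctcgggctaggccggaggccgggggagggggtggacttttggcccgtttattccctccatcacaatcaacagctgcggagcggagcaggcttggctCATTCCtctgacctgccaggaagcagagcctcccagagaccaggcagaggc
Cldn7 promoter, chr11:69964529-69964828: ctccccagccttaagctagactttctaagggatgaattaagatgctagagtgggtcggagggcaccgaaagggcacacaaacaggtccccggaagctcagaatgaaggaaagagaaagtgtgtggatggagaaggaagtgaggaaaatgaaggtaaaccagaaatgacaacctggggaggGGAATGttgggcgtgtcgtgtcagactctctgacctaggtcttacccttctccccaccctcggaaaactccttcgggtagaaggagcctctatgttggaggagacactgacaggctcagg
TEAD factors are the DNA-binding partners of YAP. The TEAD letters stood at positions -147 and 27 from the start site of Cldn2, at -237 and -1 of Cldn15 and at -70 of Cldn7. They occurred in 14.7% of the 32851 RefSeq promoters of this length. Of the 12 promoters listed for the 9 genes, only the printed ones held the TEAD letters. The promoters of Ocln, of Cldn3 and of the second start site of Cldn7 held none. The CDX letters, of an intestinal homeobox family, stood at -244 in Cldn2 and occurred in 11.9% of all promoters. The AP-1 letters stood at -214 in Cldn15 and occurred in 7.81% of all promoters, and they were also found at -240 and -158 in the promoter of Cldn4, which was called in neither clone. The search also covered CACCTG (the E-box of Snail and Zeb), ACCGGT (GRHL), CAAAGTC (HNF4) and CTTTGAT (TCF/LEF), present in 20.2%, 2.33%, 4.44% and 3.73% of promoters, with no overlap between the matches printed. GTTAAT (an HNF1 half-site) was added after values were seen. It was present in 7.1% of promoters and matched none listed for these genes. The E-box letters were found in promoters of Cldn3, Cldn4, Ocln and a second Cldn7 start site. Promoters were listed for 8 of the 9 genes, all but Cldn23, and a letter match is a description and not a binding site.

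Cldn2 (ENSMUSG00000047230, chrX:139800828-139811386, plus strand, mm10) encodes a claudin that forms channels for cations and water. Its level in clone1 ranged from 0.933 to 3.93 CPM with a median of 2.21 CPM, and in clone2 from 0.204 to 2.31 CPM with a median of 0.589 CPM. The 3 Scrambled libraries held 79, 117 and 99 counts, and all of them lay at 18.1 to 20.1 CPM. Each of the 18 knockout libraries was thus lower than every Scrambled library. Cldn2 fell by 2.97 ± 0.37 in clone1 (edgeR adjusted p = 3.99e-07) and by 4.55 ± 0.40 in clone2 (edgeR adjusted p = 1.89e-11). The 95% intervals ran from -3.72 to -2.21 in clone1 and from -5.36 to -3.74 in clone2. Means of 2.34 ± 1.25 CPM in clone1 and 0.804 ± 0.701 CPM in clone2 were 8.05 and 23.4 times lower than the 18.8 ± 1.11 CPM of Scrambled. In such bulk libraries fewer cells of a type and less RNA per cell cannot be told apart.

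Cldn15 (ENSMUSG00000001739, chr5:136966616-136975858, plus strand) encodes the other channel-forming claudin, a sodium channel of the gut epithelium. In clone1 it ranged from 0 to 1.12 CPM with a median of 0.509 CPM, and in clone2 from 0 to 0.328 CPM with a median of 0 CPM. The Scrambled libraries had 7.16, 4.48 and 5.07 CPM. Again each of the 18 knockout libraries was lower than every Scrambled library. Cldn15 fell by 3.51 ± 0.63 in clone1 (edgeR adjusted p = 1.48e-04) and by 5.89 ± 0.74 in clone2 (edgeR adjusted p = 8.24e-08). These values rest on few counts: 17 counts over clone1 and 3 over clone2, against 85 over Scrambled. From the counts alone, clone1 held 0.0846 of the Scrambled level (95% exact interval 0.0471 to 0.144) and clone2 0.0127 of it (0.00258 to 0.0385), and these intervals cover counting error only. Of the 34 libraries, 14 had no Cldn15 count, where 3 counts correspond to 0.528 to 1.82 CPM.

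**Figure D1:**
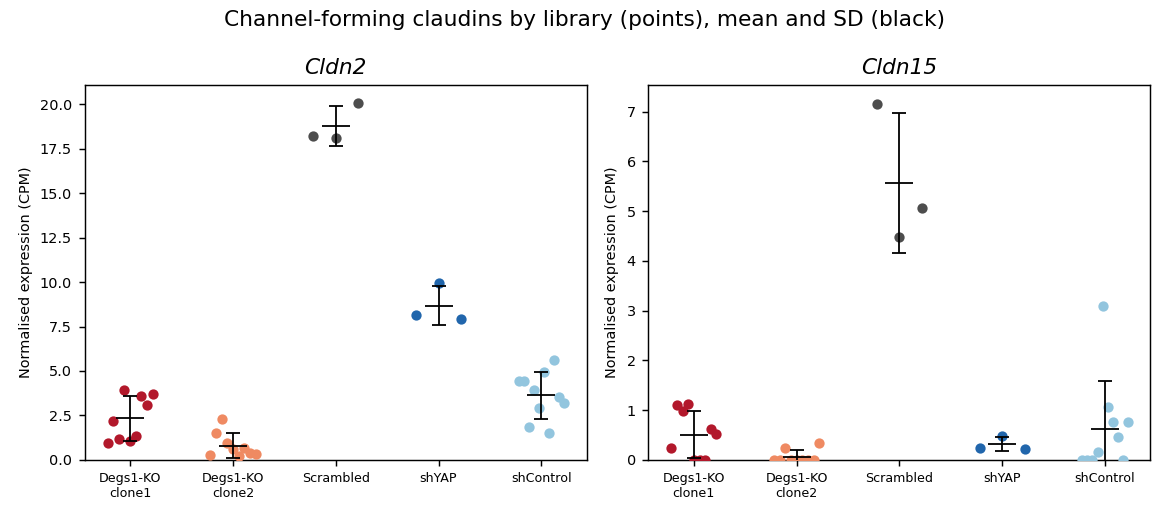
Level of Cldn2 and Cldn15 in CPM (vertical axes) in each library (points), by group, with the mean and SD over libraries (the lower bar stops at 0). The 3 Scrambled libraries lie at 18.1 to 20.1 CPM for Cldn2 and 4.48 to 7.16 CPM for Cldn15, above every other library.

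Of the other 5 claudins, Cldn7 and Cldn3 were called, both lower in clone2 against Scrambled, and Cldn4, Cldn12 and Cldn23 were called in neither clone. Cldn7 (ENSMUSG00000018569, chr11:69964779-69967885, plus strand), a basolateral claudin that binds EpCAM, ranged from 136 to 205 CPM in clone1 with a median of 164 CPM. In clone2 it ranged from 76.7 to 105 CPM with a median of 96.9 CPM, and the Scrambled libraries had 153, 177 and 139 CPM. All 9 clone2 libraries lay below the lowest Scrambled library and below the lowest clone1 library. Cldn7 fell by 0.77 ± 0.12 in clone2 (edgeR adjusted p = 1.77e-06). In clone1 the change was 0.09 ± 0.12 (edgeR adjusted p = 0.696), with an interval from -0.15 to 0.33.

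Cldn3 (ENSMUSG00000070473, chr5:134986214-134987472, plus strand) and Cldn4 (ENSMUSG00000047501, chr5:134945119-134946934, minus strand) are single-exon genes 39.3 kb apart whose products bind the enterotoxin of Clostridium perfringens. Cldn3 ranged from 71.8 to 107 CPM in clone1 (median 98.8 CPM) and from 56.2 to 102 CPM in clone2 (median 80.4 CPM), and the Scrambled libraries had 108, 110 and 95.3 CPM. In clone2, 7 of 9 libraries lay below the lowest Scrambled library. Cldn3 fell by 0.39 ± 0.14 in clone2 (edgeR adjusted p = 0.0238), and its change in clone1 was -0.12 ± 0.14 (edgeR adjusted p = 0.654). The clone2 call was lost without Scrambled replicate 1 (-0.38, edgeR adjusted p = 0.0887) and without Scrambled replicate 2 (-0.35, edgeR adjusted p = 0.116). The exons of Cldn3 overlap those of the antisense gene Wbscr25, which had 187 counts over all libraries, and the strand setting of the counting is not given in the sources used here. Cldn4 ranged from 42.0 to 80.6 CPM in clone1 and from 39.2 to 50.9 CPM in clone2, against 52.2, 56.1 and 50.1 CPM in Scrambled. Its changes of 0.30 ± 0.15 in clone1 (edgeR adjusted p = 0.206) and -0.29 ± 0.15 in clone2 (edgeR adjusted p = 0.12) had opposite signs, and neither was called.

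Cldn12 (ENSMUSG00000046798, chr5:5489537-5514958, minus strand), a claudin without the usual PDZ-binding C terminus, was not called in either clone. It averaged 17.6 ± 4.52 CPM in clone1 and 17.3 ± 3.83 CPM in clone2, against 23.7 ± 7.87 CPM in Scrambled. The Scrambled libraries were spread widely, at 16.4, 22.7 and 32.0 CPM. Its changes were -0.40 ± 0.21 in clone1 (edgeR adjusted p = 0.235) and -0.47 ± 0.21 in clone2 (edgeR adjusted p = 0.0774). Without Scrambled replicate 1 the clone2 value became a call, at -0.68 ± 0.23 (edgeR adjusted p = 0.0281). Cldn23 (ENSMUSG00000055976, chr8:35824712-35826559, minus strand), a claudin of surface enterocytes, had low levels, with means of 3.23 ± 1.10 CPM in clone1, 2.33 ± 1.08 CPM in clone2 and 1.85 ± 1.02 CPM in Scrambled. Its changes of 0.75 ± 0.47 in clone1 and 0.28 ± 0.47 in clone2 were not called (edgeR adjusted p = 0.338 and 0.692).

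Ocln (ENSMUSG00000021638, chr13:100496507-100552718, minus strand) followed Cldn7. It ranged from 48.9 to 71.3 CPM in clone1 with a median of 56.1 CPM. In clone2 it ranged from 24.3 to 38.6 CPM with a median of 32.8 CPM, and the Scrambled libraries had 54.3, 49.9 and 62.3 CPM. All 9 clone2 libraries lay below the lowest library of Scrambled, of clone1 and of shControl. Ocln fell by 0.83 ± 0.13 in clone2 (edgeR adjusted p = 5.86e-06), and its change in clone1 was 0.04 ± 0.14 (edgeR adjusted p = 0.891), with an interval from -0.24 to 0.32. Tjp1 (ENSMUSG00000030516, chr7:65296165-65527781, minus strand, 28 exons in its longest transcript) averaged 35.9 ± 6.26 CPM in clone1 and 24.2 ± 7.22 CPM in clone2, against 32.7 ± 0.108 CPM in Scrambled. In clone2, 8 of 9 libraries lay below the lowest Scrambled library. Its changes of 0.13 ± 0.20 in clone1 (edgeR adjusted p = 0.735) and -0.45 ± 0.19 in clone2 (edgeR adjusted p = 0.0736) were not called.

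**Figure D2:**
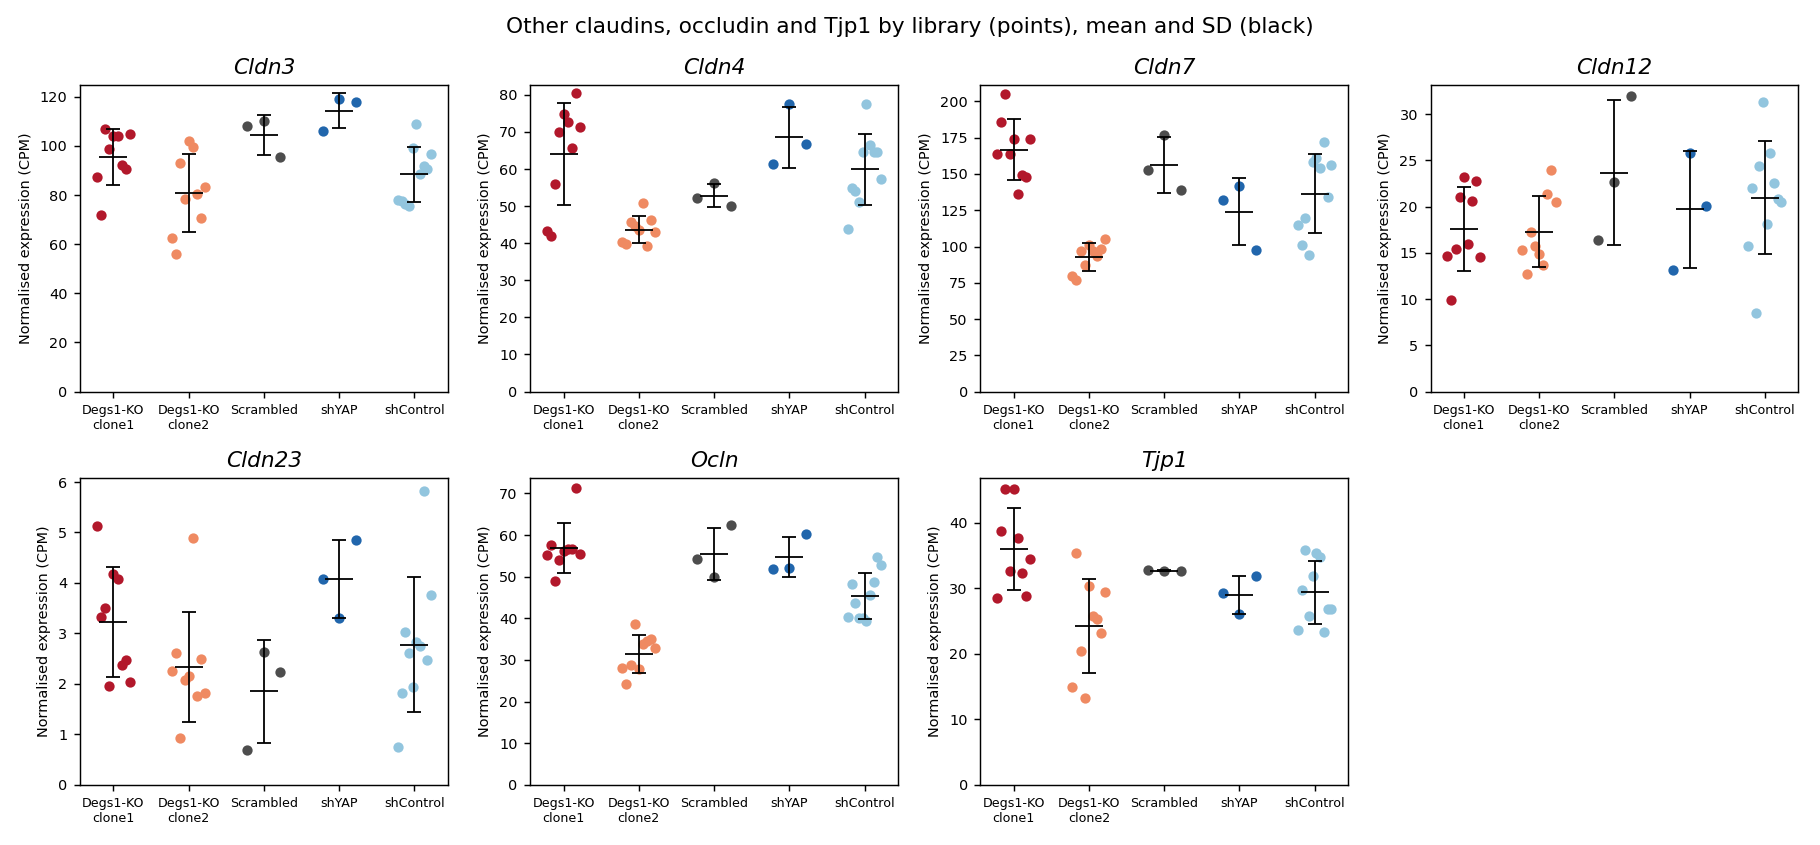
Level in CPM (vertical axes) of Cldn3, Cldn4, Cldn7, Cldn12, Cldn23, Ocln and Tjp1 in each library (points), by group, with the mean and SD over libraries. For Cldn7 and Ocln the 9 clone2 libraries, at 76.7 to 105 CPM and 24.3 to 38.6 CPM, lie below all clone1 and Scrambled libraries.

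With both clones weighted equally against Scrambled, 4 of the 9 genes were lower (Cldn2, Cldn15, Cldn7 and Ocln) and 0 higher, where 17.6% of the 11514 tested genes were called, 8.39% higher and 9.21% lower. In clone1, 2 of 9 were lower (Cldn2 and Cldn15) where 12.7% of tested genes were called, 5.96% higher and 6.71% lower. In clone2, 5 of 9 were lower (Cldn2, Cldn15, Cldn3, Cldn7 and Ocln) where 33.1% were called, 16.5% higher and 16.6% lower. The median change over the 9 genes was -0.34 for the mean of the clones, 0.04 in clone1 and -0.47 in clone2, beside medians over all tested genes of 0, 0.03 and -0.03. Both clones were set against the same 3 Scrambled libraries. For the mean of the clones, Cldn2 fell by 3.76 ± 0.32 (edgeR adjusted p = 2.49e-11) and Cldn15 fell by 4.70 ± 0.57 (edgeR adjusted p = 8.63e-08). In the same contrast Cldn7 changed by -0.34 ± 0.11 (edgeR adjusted p = 0.0239) and Ocln by -0.40 ± 0.13 (edgeR adjusted p = 0.0226). The Cldn7 call was lost without Scrambled replicate 1 or 2 (edgeR adjusted p = 0.0718 and 0.285). The Ocln call was lost without Scrambled replicate 1 or 3 (edgeR adjusted p = 0.0707 and 0.197).

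The clones were also compared directly, which tests the difference of their changes. Of the 9 genes, 7 (all but Cldn12 and Cldn23) were lower in clone2 than in clone1 and 0 higher, where 49.1% of tested genes were called, 23.6% higher and 25.5% lower. Ocln differed by -0.87 ± 0.10 (edgeR adjusted p = 3.21e-09) and Cldn7 by -0.86 ± 0.09 (edgeR adjusted p = 1.13e-10). Cldn4, called in neither clone against Scrambled, differed by -0.59 ± 0.11 (edgeR adjusted p = 1.51e-05), and Tjp1 by -0.58 ± 0.14 (edgeR adjusted p = 9.55e-04). Cldn3 differed by -0.28 ± 0.10 (edgeR adjusted p = 0.0204). Cldn2 differed by -1.58 ± 0.39 (edgeR adjusted p = 9.1e-04) and Cldn15 by -2.37 ± 0.82 (edgeR adjusted p = 0.0158), although 6 of 9 clone2 libraries lay below the lowest clone1 library for Cldn2. With knockout replicates 1 to 6 alone the differences of Cldn2 and Cldn3 were -0.77 (edgeR adjusted p = 0.201) and -0.25 (edgeR adjusted p = 0.116). With replicates 7 to 9 alone those of Cldn15 and Tjp1 were -1.42 (edgeR adjusted p = 0.359) and -0.27 (edgeR adjusted p = 0.157). With limma the Cldn15 difference was -0.78 (limma adjusted p = 0.0762). With limma and sets of consecutive replicates as a random block, Cldn3 was at -0.31 (limma adjusted p = 0.0597) and Cldn15 at -0.77 (limma adjusted p = 0.223). Of 10 absorptive colonocyte markers, 6 passed the filter on low counts and all 6 were lower in clone2 than in clone1. The 10 summed to 517 to 1002 CPM in clone2, 1552 to 2525 CPM in clone1 and 1216 to 1375 CPM in Scrambled, and Slc26a3 was at 0 in Scrambled. Most of that sum came from Ceacam1 and Car1, which averaged 382 and 373 CPM in clone2 and 747 and 1063 CPM in clone1, against 1022 and 137 CPM in Scrambled. Of 6 crypt-base stem cell markers, 3 were higher and 1 lower in clone2 than in clone1. They summed to 190 to 425 CPM in clone2, 152 to 238 CPM in clone1 and 245 to 415 CPM in Scrambled, mostly from Ascl2 and Axin2. The stem cell receptor gene Lgr5 was the lower one, at 1.14 ± 0.601 CPM in clone2 and 11.5 ± 4.68 CPM in clone1, a difference of -3.27 ± 0.28 (edgeR adjusted p = 1.99e-12), and it averaged 23.1 ± 3.8 CPM in Scrambled. Against Scrambled, 3 of the 6 crypt-base markers were lower and 1 higher in each clone. Beside this, 12.7% of all tested genes were called in clone1 and 33.1% in clone2. The part of these cell type markers in the results was not tested.

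**Figure D3:**
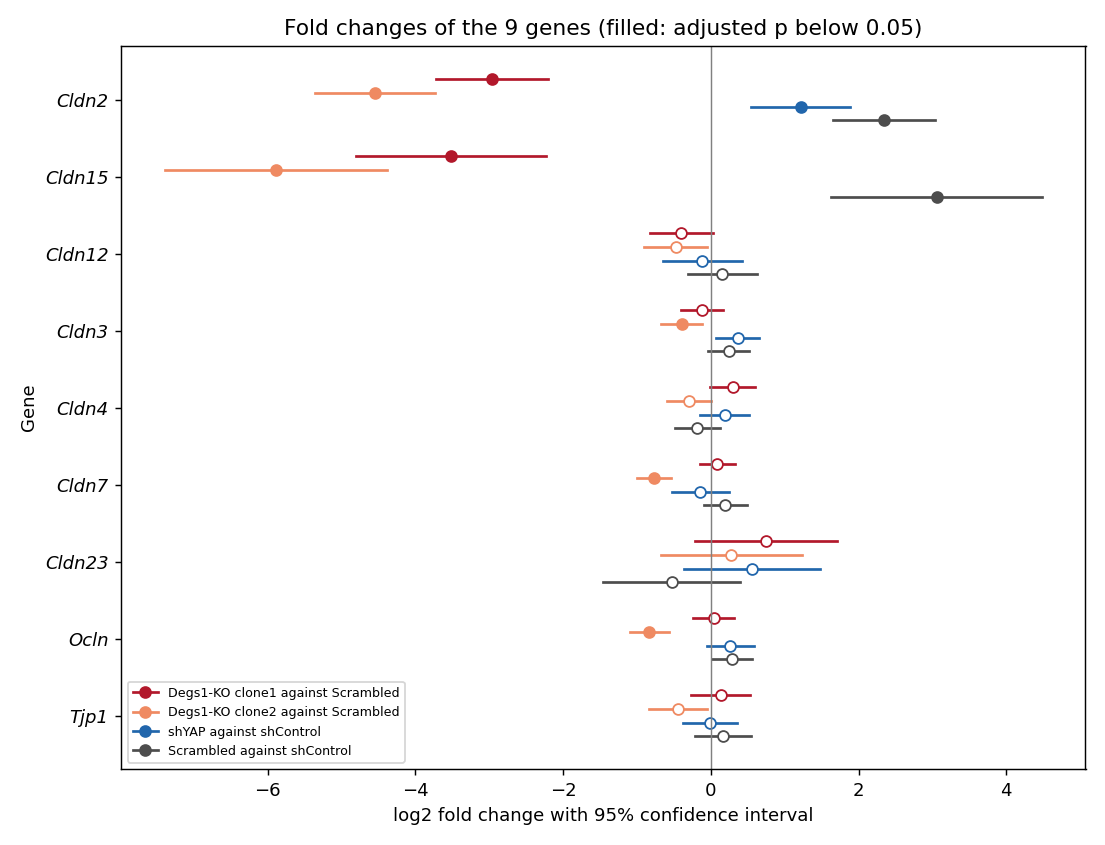
Log2 fold change of each gene (horizontal axis in log2 units, bars 95% confidence intervals) for clone1 and clone2 against Scrambled, the libraries labelled shYAP against shControl, and Scrambled against shControl. Filled points passed an adjusted p of 0.05. Cldn15 was not tested in the hairpin experiment, and Cldn2 and Cldn15 lie far from the other genes.

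In the libraries labelled shYAP, Cldn2 was higher, in the direction opposite to that in the knockout clones. Degs1 was also higher there than in shControl, by 1.47 ± 0.29 (edgeR adjusted p = 0.00205), and its part in the Cldn2 result was not tested. Cldn2 had 8.14, 9.94 and 7.94 CPM in these 3 libraries, against 1.5 to 5.59 CPM in shControl with a median of 3.72 CPM. All 3 lay above the highest shControl library. Cldn2 rose by 1.22 ± 0.32 (edgeR adjusted p = 0.0174), with an interval from 0.55 to 1.89, and the means of 8.67 ± 1.10 CPM and 3.63 ± 1.32 CPM differed 2.39 times. The call was lost when any 1 of the 3 libraries labelled shYAP was left out, at 1.12 to 1.27 with edgeR adjusted p from 0.0624 to 0.117. Cldn2 was the 1 gene called of the 8 tested, where 11.4% of 11094 tested genes were called, 5.47% higher and 5.9% lower, and the median change over the 8 was 0.23, beside -0.05 over all tested genes.

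Cldn15 did not pass the filter on low counts in the hairpin experiment, with 4 counts over the libraries labelled shYAP and 29 over shControl. By counts its level was 0.484 of that in shControl, with a 95% exact interval from 0.124 to 1.38 that covers counting error only. Of the 29 shControl counts, 16 came from replicate 5, and without it the ratio was 0.956 (0.227 to 3.09). Cldn3 averaged 114 ± 7.4 CPM in the libraries labelled shYAP and 88.4 ± 11.4 CPM in shControl, a change of 0.36 ± 0.14 that was not called (edgeR adjusted p = 0.0973). Cldn4 changed by 0.19 ± 0.16, Cldn23 by 0.56 ± 0.45 and Ocln by 0.26 ± 0.15. Cldn7 changed by -0.14 ± 0.18, Cldn12 by -0.12 ± 0.26 and Tjp1 by -0.02 ± 0.18, and the adjusted p of edgeR for these 6 genes ran from 0.272 to 0.966. The 7 goblet cell markers summed to 145 to 163 CPM in the libraries labelled shYAP and 133 to 261 CPM in shControl, and the crypt-base markers to 126 to 175 CPM and 190 to 362 CPM in the same order of groups. Their part in the Cldn2 result was not tested.

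The control lines themselves differed in the channel-forming claudins. Cldn2 averaged 18.8 ± 1.11 CPM in Scrambled and 3.63 ± 1.32 CPM in shControl, and was higher by 2.34 ± 0.34 (edgeR adjusted p = 3.6e-05). Cldn15 averaged 5.57 ± 1.41 CPM in Scrambled and 0.629 ± 0.95 CPM in shControl, and was higher by 3.06 ± 0.71 (edgeR adjusted p = 0.00786). For both genes all 3 Scrambled libraries lay above the highest shControl library. These were 2 of 9 genes called, both higher, where 2.95% of 11960 tested genes were called, 1.76% higher and 1.19% lower. The other 7 genes changed by -0.53 to 0.29, with edgeR adjusted p from 0.273 to 0.796, and the median over the 9 genes was 0.20, beside -0.04 over all tested genes. Without Scrambled replicate 1 the Cldn15 value was 2.85 ± 0.84 (edgeR adjusted p = 0.0917), and with shControl replicates 1 to 4 alone it was 6.09. Experiment and line cannot be told apart in this contrast.

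**Figure D4:**
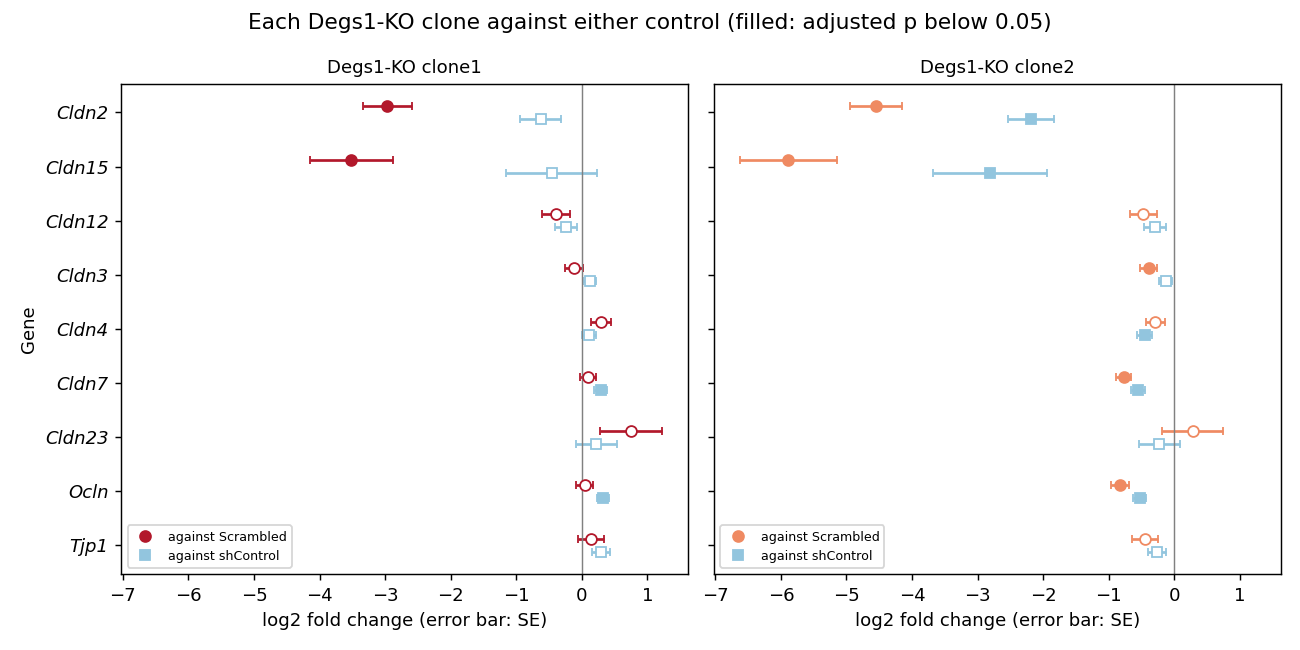
Change of each of the 9 genes in Degs1-KO clone1 and clone2 (horizontal axes, log2 units, bars SE) against Scrambled (circles) and against shControl (squares), filled where the adjusted p was below 0.05. For Cldn2 and Cldn15 the change is smaller in size against shControl in both clones.

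The size of the knockout changes in Cldn2 and Cldn15 therefore depended on the control. Against shControl in a fit of all 5 groups, Cldn2 changed by -0.63 ± 0.31 in clone1 (edgeR adjusted p = 0.148) and fell by 2.19 ± 0.35 in clone2 (edgeR adjusted p = 1.58e-06). Cldn15 changed by -0.46 ± 0.70 in clone1 (edgeR adjusted p = 0.707) and fell by 2.82 ± 0.87 in clone2 (edgeR adjusted p = 0.0085). This Cldn15 value in clone2 rests on 3 counts over clone2 and 29 over shControl, of which 16 came from shControl replicate 5. By library, 4 of 9 clone1 and 7 of 9 clone2 libraries had less Cldn2 than the lowest shControl library. For Cldn15 the lowest shControl library was at 0 CPM, so 0 of 9 libraries of either clone lay below it. Cldn7 and Ocln rose in clone1 against shControl, by 0.29 ± 0.10 (edgeR adjusted p = 0.04) and 0.32 ± 0.10 (edgeR adjusted p = 0.0116). They fell in clone2 against shControl, by 0.56 ± 0.10 (edgeR adjusted p = 2.78e-05) and 0.53 ± 0.10 (edgeR adjusted p = 2.48e-05), and Cldn4 fell by 0.45 ± 0.11 (edgeR adjusted p = 6.93e-04). Cldn3 in clone2 was -0.13 ± 0.10 (edgeR adjusted p = 0.307).

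Levels between genes were compared as CPM per kb of merged exons. Cldn3 and Cldn7 were the most abundant of the 7 claudins in each group, with group means of 64.1 to 90.6 and 47.7 to 85.5 CPM per kb. Cldn4 followed at 24.1 to 37.7 CPM per kb, while Cldn12 had 4.09 to 5.61, Cldn23 1 to 2.21, Cldn2 0.242 to 5.65 and Cldn15 0.0293 to 2.62 CPM per kb. Ocln had 7.46 to 13.5 and Tjp1 3.1 to 4.6 CPM per kb. Summed over the 7 claudins, the level was 204 ± 16.3 CPM per kb in clone1 and 141 ± 18.3 in clone2, against 207 ± 15.8 in Scrambled. It was 202 ± 17.1 CPM per kb in the libraries labelled shYAP and 181 ± 27.8 in shControl. Cldn2 and Cldn15 together made up 0.464 ± 0.241% of that sum in clone1 and 0.195 ± 0.165% in clone2, against 4.02 ± 0.559% in Scrambled. Their share was 1.36 ± 0.0776% in the libraries labelled shYAP and 0.76 ± 0.249% in shControl. Cldn7 made up 42.1% in clone1, 33.9% in clone2 and 38.7% in Scrambled, and Cldn3 37.2%, 45.0% and 40.1% in the same groups, so that Cldn3 had the larger share in clone2 and Cldn7 in clone1. With the longest transcript as length, Cldn7 had the larger share in these 3 groups.

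**Figure D5:**
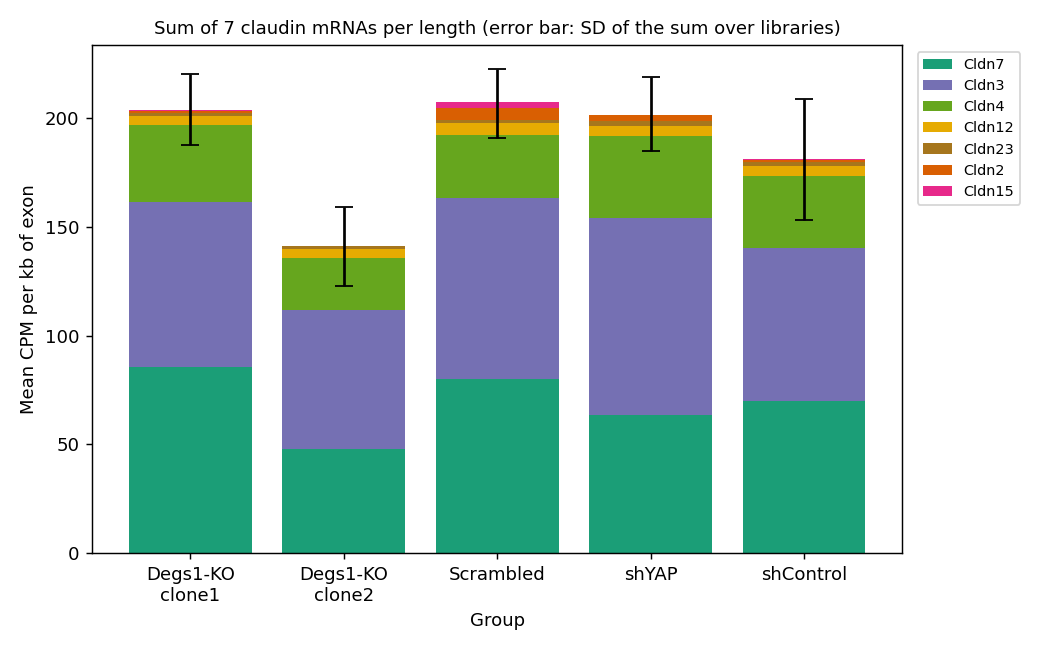
Summed level of the 7 claudins in CPM per kb of merged exons, stacked by gene, as the mean over libraries of each group, with the SD of the sum over libraries as error bar. The clone2 bar, at 141 CPM per kb, is lower than those of the other 4 groups, at 181 to 207 CPM per kb.

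In order of level over the 5 groups, neighbouring groups overlapped in their library ranges throughout for Cldn3, Cldn4, Cldn7, Cldn12, Cldn23 and Tjp1. Such overlap was not computed over all genes, so it is a description and not a trait particular to these genes. Neighbours were separated in Cldn2 (Scrambled above the libraries labelled shYAP, and these above shControl), in Cldn15 (Scrambled above shControl) and in Ocln (shControl above clone2). Among the 9 genes themselves the profiles of Cldn7 and Tjp1 were nearest, with a root mean square difference of 0.0987 log2 units over the 5 group means, followed by Cldn7 and Ocln at 0.152 and by Cldn3 and Cldn4 at 0.156. Among genes whose mean log2 CPM over all libraries reached 3, the nearest to Cldn2 were the glycosyltransferase gene Mgat4c at 0.376 and the glutathione S-transferase gene Mgst2 at 0.655. The nearest to Cldn15 were Ppp1r14d at 0.712 and the cystathionine lyase gene Cth at 0.746. The nearest to Cldn7 were Eps8l3 at 0.0314 and Nuf2 at 0.0372, to Ocln Ttf2 at 0.0349 and Kcnk1 at 0.0373, and to Tjp1 Btaf1 at 0.0289 and Cog2 at 0.033. For Cldn3 they were Psmd14 and Magohb, for Cldn4 Hspa4l and Loxl2, for Cldn12 Tfam and for Cldn23 mt-Cytb and Ubtf, at 0.0209 to 0.0602.

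Of the 21 other claudin genes, 2 passed the filter on low counts in the knockout experiment, Cldn8 and Cldn9. Cldn8, a barrier claudin of the distal colon, averaged 9.32 ± 3.02 CPM in clone1 and 34.5 ± 3.14 CPM in clone2, against 10.1 ± 1.38 CPM in Scrambled. It averaged 18.4 ± 6.17 CPM in the libraries labelled shYAP and 14.6 ± 4.85 CPM in shControl. Cldn8 rose by 1.76 ± 0.21 in clone2 (edgeR adjusted p = 3.84e-08), while its change in clone1 was -0.13 ± 0.21 (edgeR adjusted p = 0.763). It was higher in clone2 than in clone1 by 1.89 ± 0.15 (edgeR adjusted p = 2.15e-13), opposite in sign to the 7 claudin, occludin and scaffold genes called in that contrast. Cldn9, chosen after its values were seen, rose by 2.67 ± 0.83 in clone1 (edgeR adjusted p = 0.0267) and was at 1.83 ± 0.84 in clone2 (edgeR adjusted p = 0.09), with 4 counts over the Scrambled libraries. In the hairpin experiment 1 of these genes was tested and was not called, beside 11.4% of all tested genes called. Scrambled against shControl gave 0 of 2, beside 2.95%.

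Other membrane proteins of the junction were represented by 9 tested genes. Against Scrambled, 0 of 9 were called in clone1, where 12.7% of all tested genes were, and 1 higher and 3 lower in clone2, where 33.1% were. The tricellular junction gene Marveld2 (tricellulin) averaged 8.61 ± 3.16 CPM in clone1 and 5.33 ± 0.779 CPM in clone2, against 13.2 ± 2.36 CPM in Scrambled, and fell by 1.32 ± 0.25 in clone2 (edgeR adjusted p = 5.66e-05). The tricellular gene Ildr1 fell by 0.87 ± 0.26 (edgeR adjusted p = 0.00861) and the adhesion gene Cxadr by 0.46 ± 0.13 (edgeR adjusted p = 0.00513), while the adhesion gene Clmp rose by 1.17 ± 0.38 (edgeR adjusted p = 0.016). Between the clones 5 of 9 were lower in clone2 and 1 higher, where 49.1% of all tested genes were called, 25.5% lower and 23.6% higher. In the libraries labelled shYAP, where 11.4% were called, 1 of 9, Igsf5, was higher, by 0.70 ± 0.20 (edgeR adjusted p = 0.0235).

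Among 19 tested scaffold and polarity genes, 1 was higher and 1 lower in clone1, beside 12.7% of all tested genes called. In clone2, 2 were higher and 9 lower, where 33.1% of all tested genes were called, 16.5% higher and 16.6% lower. The polarity kinase gene Prkcz fell in clone1 and in clone2 against Scrambled, by 0.86 ± 0.26 (edgeR adjusted p = 0.0207) and by 0.79 ± 0.25 (edgeR adjusted p = 0.0142). It averaged 6.18 ± 1.55 CPM in clone1, 6.62 ± 1.47 in clone2 and 11.3 ± 1.85 in Scrambled, but 6.88 ± 1.93 CPM in shControl. Both clone means of Prkcz were thus close to that of shControl. Its relative Prkci fell by 0.78 ± 0.21 in clone2 (edgeR adjusted p = 0.00373). Between the clones 8 of 19 were lower in clone2 and 1 higher, where 49.1% of all tested genes were called, 25.5% lower and 23.6% higher. The cingulin gene Cgn differed by -0.95 ± 0.18 (edgeR adjusted p = 2.22e-05) and the afadin gene Afdn by -0.97 ± 0.12 (edgeR adjusted p = 1.14e-08). In the libraries labelled shYAP 1 of 19 was higher, beside 5.47% of all tested genes, the paracingulin gene Cgnl1, by 0.80 ± 0.24 (edgeR adjusted p = 0.0356).

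Of 15 adherens junction and desmosome genes, 5 were higher and 0 lower in clone1, beside 12.7% of all tested genes called, with the desmoplakin gene Dsp at 0.93 ± 0.14 (edgeR adjusted p = 1.42e-05). In clone2, 1 was higher and 5 lower, beside 33.1% called, with the E-cadherin gene Cdh1 at -0.55 ± 0.12 (edgeR adjusted p = 5.09e-04) and Nectin3 at -2.71 ± 0.43 (edgeR adjusted p = 4.84e-06). Between the clones 13 of 15 were lower in clone2 and 1 higher, beside 25.5% and 23.6% of all tested genes. Epcam, whose product binds claudin 7, was lower by 0.81 ± 0.09 in clone2 than in clone1 (edgeR adjusted p = 2.1e-09) and fell by 0.63 ± 0.16 in the libraries labelled shYAP (edgeR adjusted p = 0.0145), where 0 of 15 were higher and 2 lower, beside 11.4% of all tested genes called.

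Of 11 tested transcription factor genes known to act on claudin genes, 2 were higher and 1 lower in clone1, and 3 were higher and 4 lower in clone2, beside 12.7% and 33.1% of all tested genes called. Twist1, a mesenchymal factor, had 166 counts over the 9 clone2 libraries and 0 over the 3 Scrambled libraries, and was higher in clone2 (edgeR adjusted p = 2.39e-05). Klf4 and Klf5, of gut differentiation and proliferation, rose in clone1 by 0.78 ± 0.18 and 0.48 ± 0.12 (edgeR adjusted p = 0.003 and 0.00469). The intestinal homeobox gene Cdx2 was lower by 1.55 ± 0.31 in clone2 than in clone1 (edgeR adjusted p = 1.16e-04), among 4 higher and 4 lower between the clones, beside 49.1% of all tested genes called. In the libraries labelled shYAP 0 of 10 were higher and 3 lower, beside 11.4% called, Cdx1 by 2.02 ± 0.62, Elf3 by 0.74 ± 0.21 and Hnf4a by 0.62 ± 0.17 (edgeR adjusted p = 0.0369, 0.0259 and 0.0226). Between Scrambled and shControl none of the 9 membrane, 19 scaffold, 15 adherens junction and desmosome or 11 transcription factor genes was called by edgeR. Over all 11960 tested genes only 2.95% were called, so the lack of calls says little about whether the controls agree in these genes.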

How the data were processed

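Per the submitters' processing notes, the authors used Salmon 1.3.0 and the build mm10. Their deposited table gives estimated counts for each gene as whole numbers, without scaling across libraries. The summing of transcripts, the annotation and the strand setting are not given in the sources used here. Of 54354 genes, 29742 had 0 counts in all 34 libraries, and 1243 without a name held at most 0.0475% of a library. Positions and lengths came from GENCODE M21, which held 51485 of the IDs.

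Low genes were removed with filterByExpr (count of at least 10, total of at least 15), and TMM-normalised counts went into edgeR 4.0.16 (R 4.3.3) for its robust two-sided quasi-likelihood test. Benjamini-Hochberg adjustment ran over all genes tested, with a threshold of 0.05. The 21 knockout libraries shared 1 fit, the 13 hairpin libraries another, and Scrambled against shControl came from a fit of all 34. Group was the only covariate, since replicate numbers did not pair libraries. No libraries were duplicates by a chi-square comparison of counts. The genes and lists were chosen with earlier results of these data known. Beyond the 9 genes, the text names Degs1, Yap1, up to 4 called genes per list and comparison with the largest changes and a mean log2 CPM of at least 1, and the 2 nearest profiles per gene (log2 CPM with a prior count of 2). A few genes that these rules selected are left out here. The steps were tested on simulated data. Alternatives were DESeq2 1.42.0, its size factors, no filter, other sets of groups or libraries, and a threshold of 0.01. A further alternative was limma 3.58.1, with and without runs as a random block. Runs here were sets of consecutive replicates within a group, cut by hand. Only the cut after shControl replicate 4 fell at a gap in the library numbers. Exact intervals and floors from counts cover counting error only, and leaving out shControl replicate 5 for Cldn15 was chosen after its values were seen.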

Additional observations from a re-analysis of the deposited data

Results flagged for a closer look

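Among 27 sets of 9 or 10 libraries of 1 group, checked gene by gene, 3 held a library far from the rest, and chance gives about 1 such set in 20. Cldn15 was at 3.09 CPM in shControl replicate 5, with the next library at 1.06 CPM. Cldn23 was at 4.9 CPM in clone2 replicate 6, with the next library at 2.62 CPM. Ocln was at 71.3 CPM in clone1 replicate 8, with the next library at 57.5 CPM.

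The changes against Scrambled differed between the knockout clones for 7 genes, by the test of clone2 against clone1, which gave -2.373 for Cldn15, -1.579 for Cldn2 and -0.276 for Cldn3. The differences were -0.589 for Cldn4, -0.862 for Cldn7, -0.872 for Ocln and -0.58 for Tjp1, in log2 units. Calls for Cldn2, Cldn3, Cldn15 and Tjp1 were lost under some alternatives, and those for Cldn4, Cldn7 and Ocln under none.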

How the results depend on the processing

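Each of the 9 genes was recomputed in each comparison under the alternatives, 767 values in all, of which 680 kept their direction and their side of the threshold, 38 lost a call, 19 became a call and 30 changed sign. Cldn2, Cldn15, Cldn7 and Ocln fell in clone2, and were called, under all 16 alternatives run for each, including that with shControl in place of Scrambled. Values were -5.33 to -2.19 for Cldn2, -6.42 to -2.82 for Cldn15, -0.86 to -0.56 for Cldn7 and -0.99 to -0.53 for Ocln. For each of these genes the smallest fall was the value against shControl. In clone1, Cldn2 and Cldn15 kept their calls under 15 of 16, all but shControl as control.

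Of the 9 genes, those called for the mean of the clones numbered 4, and 2 with limma and runs as a random block, 2 at a threshold of 0.01, 1 with shControl as control, and 2 to 4 when a library was left out. When a library was left out the number was 2 in clone1, 4 to 5 in clone2 and 7 between the clones. For the libraries labelled shYAP the 1 call became 2 with DESeq2, 0 with limma and runs, 0 at 0.01, 2 with shControl replicates 1 to 4, 2 with 8 to 10, and 0 when any shYAP library was left out. For Scrambled against shControl 2 became 4 with shControl replicates 1 to 4, and 1 to 2 when a Scrambled library was left out. Calls over all tested genes moved in several of these settings. For the mean of the clones they were 896 with limma and runs, against 2027. For shYAP they were 271 with limma and runs, 2604 with shControl replicates 1 to 4 and 2229 with 8 to 10, against 1261. For Scrambled against shControl they were 1457 with shControl replicates 1 to 4, against 353.

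Values that changed sign were not called in either setting. For the mean of the clones Cldn4, at 0.00, became -0.008 without a filter, -0.021 with limma, -0.013 with limma and runs, -0.022 with knockout replicates 1 to 6, -0.172 with shControl as control, and -0.041 to 0.056 when a Scrambled library was left out (-0.013 without replicate 1 and -0.041 without replicate 3). With shControl as control Cldn23 became -0.006, Tjp1 0.016, Cldn3 in clone1 0.120 and Cldn23 in clone2 -0.232. Ocln in clone1 ranged from -0.024 without Scrambled replicate 2 to 0.127 without replicate 3, and was -0.008 with knockout replicates 1 to 6. With replicates 7 to 9, Cldn7 and Tjp1 in clone1 became -0.010 and -0.047 and Cldn12 between the clones 0.206. Cldn23 in clone2 ranged from -0.085 without Scrambled replicate 1 to 0.634 without replicate 2. In shYAP against shControl, Cldn12 ranged from -0.355 to 0.109 and Tjp1 from -0.108 to 0.059 when a shYAP library was left out. With shControl replicates 1 to 4, Cldn7 became 0.195, Cldn12 0.076 and Tjp1 0.026, and with 8 to 10 Tjp1 became 0.165. In Scrambled against shControl Cldn4 became 0.053 with shControl replicates 1 to 4 and Cldn12 ranged from -0.105 to 0.368 when a Scrambled library was left out. The causes were not tested.

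Same-numbered libraries did not deviate together: of 48 pairs, 3 had a correlation over 0.1, with a range from -0.136 to 0.22. With the replicate number as a block, the genes called numbered 5 for the mean of the clones, 2 in clone1, 7 in clone2, 7 between the clones, 1 for shYAP and 2 for Scrambled against shControl. Under the block Cldn4 became -0.234 for the mean of the clones and 0.053 for Scrambled against shControl, Ocln -0.114 in clone1, and Cldn7 and Cldn12 0.136 and 0.309 in shYAP. Cldn2 in shYAP lost its call under the block (1.25, edgeR adjusted p = 0.111), Cldn3 gained one (0.55, edgeR adjusted p = 0.0381), and Cldn7 for the mean of the clones lost its call (-0.32, edgeR adjusted p = 0.104).

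Counts over all genes tested moved by over 1.5 times in 25 of 87 cases: 896 to 1254 against 2027 for the mean of the clones, 467 to 2503 against 1459 in clone1, 2304 against 3810 in clone2, 271 to 2604 against 1261 for shYAP, and 65 to 1457 against 353 for Scrambled against shControl. Depth limits Cldn15, Cldn2 in clone2 and Cldn23 most.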
